A study of Mus musculus with 24 samples.

Results

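The mRNA levels of 4 genes of neutrophil attraction were followed in the mouse heart after a sham operation: the chemokine ligands Cxcl1, Cxcl3 and Cxcl5 and their receptor Cxcr2. Each gene was read from 1 row of the deposited table, Cxcl1 from uc008ybl.2, Cxcl3 from uc008ybj.2, and Cxcl5 and Cxcr2 from the single UCSC identifier paired with each symbol, which makes 4 of 63758 listed transcripts. Left ventricles of 24 male C57BL/6 mice (C57BL/6J in the methods) were sequenced, 8 separate mice at each of 3 times, with 1 library per mouse and no pooling. All mice, aged 8 to 12 weeks, received pentobarbital and buprenorphine, were ventilated, and had a left thoracotomy with a suture led round the left anterior descending coronary artery but never tied. In the 0 min group the suture was withdrawn at once, in the 45 min group after 45 min, and in the 24 h group the chest was closed at 45 min and the mice were kept until 24 h. The 0 min mice had therefore been operated on as well, no unoperated group was analysed here, and no coronary artery was occluded in any group.

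Cxcl1, Cxcl3 and Cxcl5 are small secreted proteins with the ELR motif typical of CXC chemokines that attract neutrophils. They act on Cxcr2, a G protein-coupled receptor carried mainly by neutrophils, and guide these cells from the blood into injured tissue. Stromal cells, endothelial cells and macrophages produce the ligands after inflammatory signals through NF-kB, and in the heart this axis is known for the early entry of neutrophils after injury.

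The ligand genes lie together on mouse chromosome 5 and the receptor gene lies on chromosome 1, all on the plus strand. In GRCm38 (GENCODE M21), Cxcl5 occupies chr5:90759360-90761624, Cxcl3 chr5:90786103-90789600 and Cxcl1 chr5:90891241-90893115, in this order, and Ppbp and Pf4 lie between Cxcl5 and Cxcl3. Cxcl2, a further Cxcr2 ligand, follows Cxcl1 at chr5:90903871-90905938. From Cxcl5 to Cxcl2 the cluster spans 146.6 kb, and 101.6 kb separate Cxcl3 from Cxcl1. Cxcr2 occupies chr1:74153989-74161246. No other annotated gene overlaps any of these genes.

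The 120 bases in front of the start sites of Cxcl1, Cxcl3, Cxcl2 and Cxcr2 are shown because neighbouring ligand genes that differed in timing shared short stretches there. The sequences are from RefSeq (GRCm38.p6, plus strand, 5′ to 3′). Those of Cxcl1, Cxcl2 and Cxcr2 end just before the GENCODE start, and that of Cxcl3 just before the RefSeq start. The RefSeq starts of Cxcl1 (90891245) and Cxcl2 (90903899) lie downstream of the bases shown. Distances from these starts therefore do not count from the last base shown. Capitals mark the longest stretches common to the 250 bases before Cxcl1, Cxcl2 and Cxcl3, which are the κB-type GGGAATTTCCC and, next in length, the TATA-type ATAAAAGG.
Cxcl1, chr5:90891121-90891240: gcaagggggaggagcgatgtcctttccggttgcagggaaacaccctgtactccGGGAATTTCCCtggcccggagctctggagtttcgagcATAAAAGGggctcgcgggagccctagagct
Cxcl3, chr5:90785981-90786100: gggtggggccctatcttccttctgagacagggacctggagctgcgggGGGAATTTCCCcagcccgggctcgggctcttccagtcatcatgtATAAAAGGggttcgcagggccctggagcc
Cxcl2, chr5:90903751-90903870: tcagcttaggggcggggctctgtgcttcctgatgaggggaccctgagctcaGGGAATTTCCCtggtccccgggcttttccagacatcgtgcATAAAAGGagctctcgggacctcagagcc
Cxcr2, chr1:74153869-74153988: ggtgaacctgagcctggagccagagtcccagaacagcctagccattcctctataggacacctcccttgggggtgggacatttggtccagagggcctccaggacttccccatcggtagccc

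GGGAATTTCCC began 71 bases before the RefSeq start of Cxcl1, 73 bases before that of Cxcl3 and 97 bases before that of Cxcl2. ATAAAAGG began 34, 29 and 57 bases before these starts, in the same order of genes, and did not overlap the first stretch. Neither was found, on either strand, in the 250 bases before the Cxcr2 start. On both strands together, 14 of 32851 RefSeq promoter windows of 250 bases (0.0426%) held GGGAATTTCCC and 1.54% held ATAAAAGG. The 3 windows from which the stretches were drawn were the only ones with both (0.00913%). A match describes letters in a window and not a site in use. Cxcl5 was not matched in the promoter table.

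Total counts per library ranged from 9887957 to 14091629, and 12972 to 18865 transcripts were detected. Levels are CPM values, which divide counts by a library's total after edgeR's TMM correction, and 1 count was worth 0.0583 to 0.114 CPM. Of the listed transcripts 8940 passed edgeR's filter on low counts and were tested for time, among them Cxcl1, Cxcl5 and Cxcr2 but not Cxcl3. Apart from the rest stood 4 libraries, the 45 min replicates 1, 6, 7 and 8, with TMM factors of 0.717 to 0.798. In replicate 1 a single unnamed transcript held 35.2% of the counts, and replicates 6, 7 and 8 had only 12972 to 14353 transcripts detected. Cardiomyocyte markers were abundant in every library, with a summed level of 16570 to 23535 CPM at 0 min, 17725 to 29264 at 45 min and 6920 to 11977 at 24 h. Of these, Actc1 alone averaged 14820 CPM at 0 min and 5704 at 24 h, beside mean sums of 19727 and 9721. For the comparisons between times, values without these 4 libraries are given beside the results that changed, while the relations among the 45 min mice were not recomputed, as only 4 mice would remain.

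The members followed different courses, shown per mouse in the plot of ligands and receptor. Cxcl1 rose within 45 min and was lower again at 24 h. Cxcl5 and Cxcl3 reached their highest levels at 24 h, and Cxcr2 was also highest at 24 h. The mean at 45 min was 328% of the mean at 24 h for Cxcl1, 28.1% for Cxcr2, 6.16% for Cxcl5 and 1.67% for Cxcl3.

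**Figure D1:**
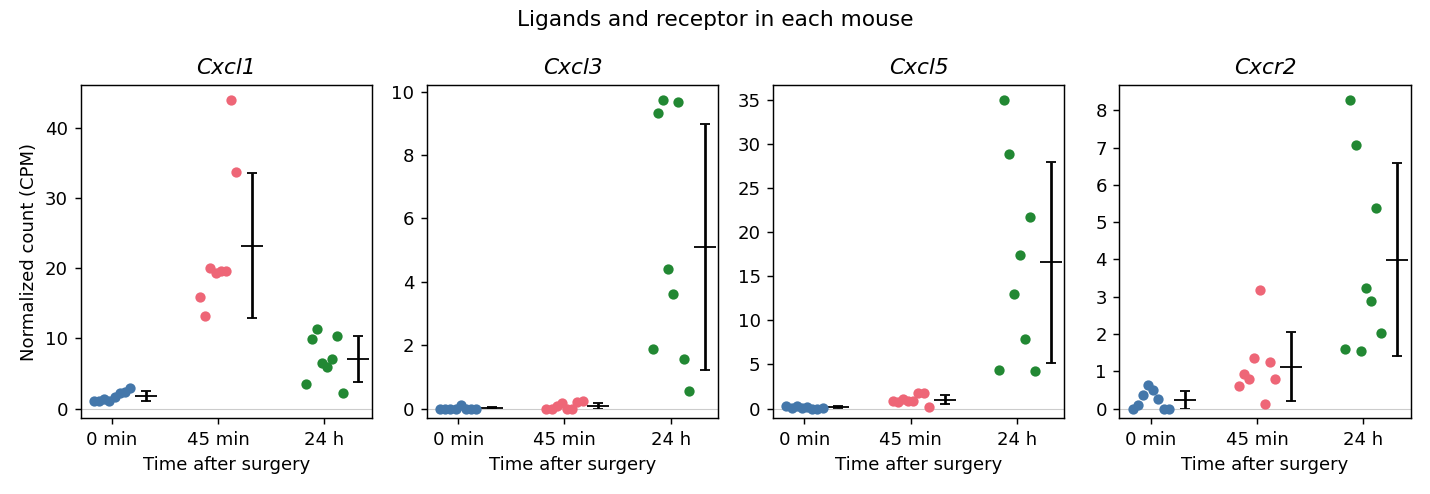
Normalized counts (CPM, linear axes that differ between panels) of the 3 ligands and the receptor against time after surgery, with 1 point per mouse and, beside them, the mean with its SD (n = 8). Cxcl1 reached 13.1 to 44.0 CPM at 45 min, above both other time points in every mouse, whereas Cxcl3, Cxcl5 and Cxcr2 had their highest means at 24 h.

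Cxcl1, the ligand with the fastest response, was measured at 1.00 CPM in the lowest mouse, 1.52 in the median and 2.96 in the highest at 0 min. At 45 min the lowest mouse had 13.1 CPM, the median was 19.6 and the highest had 44.0. At 24 h the lowest mouse had 2.18 CPM, the median was 6.74 and the highest had 11.3. All mice at 45 min thus lay above all mice at 0 min and at 24 h, while the 0 min and 24 h groups overlapped. Means were 1.72 ± 0.719, 23.2 ± 10.3 and 7.06 ± 3.25 CPM (SD, n = 8).

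Between 0 and 45 min, the log2 level of Cxcl1 rose by 3.75 with a standard error of 0.33 (edgeR's quasi-likelihood test, Benjamini-Hochberg adjusted p = 1.84e-07). At 24 h it was still 2.04 ± 0.32 above 0 min on that scale (edgeR, adjusted p = 0.000123). From 45 min to 24 h it fell by 1.71 (edgeR, standard error 0.30, adjusted p = 0.000401). The comparisons with 0 min share the same 8 mice, so they are not independent of each other. The highest 45 min mice were replicates 7 and 8, with 44.0 and 33.7 CPM, which belong to the 4 libraries that stood apart. Without those 4 libraries the rise by 45 min was 3.42 (edgeR, adjusted p = 5.75e-06) and the later log2 change was -1.36 (adjusted p = 0.012).

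Cxcl5, the ligand at the other end of the cluster, was near the limit of detection at 0 min, where 2 mice had no count and the highest had 0.318 CPM around a median of 0.0934. At 45 min it ranged from 0.223 to 1.77 CPM with a median of 0.894. At 24 h the lowest mouse had 4.20 CPM, the median was 15.2 and the highest had 34.9. Every 24 h mouse lay above every earlier mouse, and the 0 min and 45 min groups overlapped in their tails. Group means were 0.132 ± 0.119, 1.02 ± 0.511 and 16.6 ± 11.4 CPM (SD, n = 8).

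The log2 change of Cxcl5 at 24 h was 6.84 ± 0.56 against 0 min (edgeR, adjusted p = 7.27e-09) and 4.02 ± 0.44 against 45 min (edgeR, adjusted p = 1.29e-06). At 45 min it was 2.82 ± 0.64 above 0 min (edgeR, adjusted p = 0.027). This early rise was lost by limma-voom (2.75, adjusted p = 0.297) and without the 4 libraries that stood apart (2.67, edgeR adjusted p = 0.183). It was also lost when any of 7 single mice was left out, 5 at 0 min (replicates 2, 4, 6, 7 and 8) and 2 at 45 min (replicates 6 and 7), with adjusted p values of up to 0.0683.

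Cxcl3 was almost absent before 24 h. A single count was found over the 8 mice at 0 min and 7 counts over those at 45 min, against 525 counts at 24 h. The 0 min mice had 0 CPM except 1 mouse at 0.0976, and at 45 min the median was 0.0399 and the highest value 0.223 CPM. At 24 h the lowest mouse had 0.565 CPM, the median was 4.01 and the highest had 9.72, so every 24 h mouse lay above every earlier mouse. The mean at 24 h was 5.09 ± 3.89 CPM (SD, n = 8).

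Because Cxcl3 failed the filter on low counts, it was tested alone on log2(CPM + 0.5), a scale that understates changes of low values. The mean difference was 3.06 between 24 h and 0 min and 2.88 between 24 h and 45 min (two-sided exact permutation test, p = 0.000155 in both, the smallest that 8 against 8 mice can give, adjusted over 3 comparisons p = 0.000233). Between 45 and 0 min it was 0.18 (exact permutation test, p = 0.128). The summed counts at 24 h were 61.4 times those at 45 min after scaling (95% exact interval 29.6 to 153, counting error only). Against the 1 count at 0 min the ratio was 434, with an interval from 77.6 to 17192, and for 45 min against 0 min it was 7.08 (0.909 to 319). In an edgeR fit without the filter the log2 change at 24 h was 7.86 ± 0.71 against 0 min (adjusted p = 3.78e-10).

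The transcripts of Cxcl2 and Cxcl3 share 100 stretches as long as a 76-base read, with a longest common run of 157 bases, so the counts of both are uncertain where reads could not be placed. Cxcl1, Cxcl5 and Cxcr2 share no such stretch with one another or with Cxcl2 or Cxcl3.

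Cxcr2, the receptor, was detected at 0 min in 5 of 8 mice, with a median of 0.171 and a highest value of 0.639 CPM. At 45 min it ranged from 0.114 to 3.18 CPM with a median of 0.860. At 24 h it ranged from 1.55 to 8.27 CPM with a median of 3.06. The 24 h mice all lay above the 0 min mice and overlapped those at 45 min, where replicate 5 (3.18 CPM) was far above the next mouse (1.36). Group means were 0.229 ± 0.249, 1.13 ± 0.917 and 4.00 ± 2.59 CPM (SD, n = 8).

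At 24 h Cxcr2 was 4.08 ± 0.59 above 0 min on the log2 scale (edgeR, adjusted p = 3.8e-05) and 1.79 ± 0.48 above 45 min (edgeR, adjusted p = 0.0191). At 45 min the log2 difference from 0 min was 2.29 ± 0.63 and did not pass the threshold (edgeR, adjusted p = 0.119), whereas DESeq2 gave 2.35 (adjusted p = 0.00813). The difference between 24 h and 45 min was lost without the 4 libraries that stood apart (1.33, edgeR adjusted p = 0.22), with the number of detected transcripts as a covariate (1.50, adjusted p = 0.0552), and without the 24 h replicate 2 (1.52, adjusted p = 0.0648) or 3 (1.59, adjusted p = 0.0514).

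Read against all transcripts tested, 2 of the 3 tested members (Cxcl1 and Cxcl5) were called higher at 45 min than at 0 min, beside 0.481% of all transcripts. In the test over all times together all 3 passed, beside 8.91% of transcripts. The members are on the study's own list of transcripts changing over time in these samples. This and the other counts here are therefore not independent evidence. All 3 tested members were called higher at 24 h than at 0 min, beside 4.44%. Between 45 min and 24 h, Cxcl5 and Cxcr2 were called higher, beside 4.59%, and Cxcl1 lower, beside 4.51%. Groups without overlap, as for Cxcl1 at 45 min above 0 min, were found in 0.235% of transcripts in that comparison. For 24 h above 0 min, where Cxcl3, Cxcl5 and Cxcr2 showed no overlap, the share was 0.996%. For 24 h above 45 min, where Cxcl3 and Cxcl5 showed none, it was 0.682%. Cxcl3 failed the filter and is not among the transcripts behind these shares. For 24 h below 45 min, as in Cxcl1, the share was 0.716%. The median log2 change of all tested transcripts was 0.01, 0.00 and 0.03 in these comparisons (45 min and 24 h against 0 min, 24 h against 45 min).

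To compare the timing of ligands and receptor directly, the difference of log2(CPM + 0.5) between 2 members was taken within each mouse and compared between time points. This made 18 tests (6 pairs of members, 3 pairs of times), and the p values are from two-sided exact permutation tests adjusted over the 18.

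**Figure D2:**
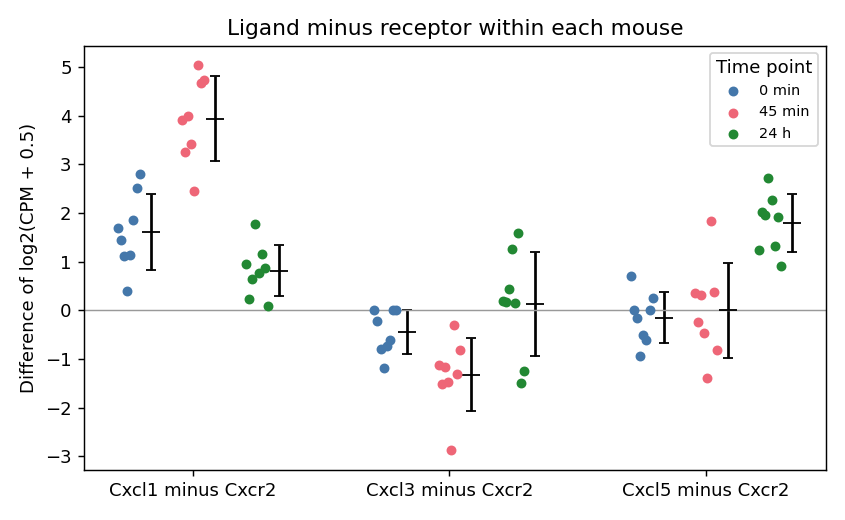
Difference of log2(CPM + 0.5) between each ligand and Cxcr2 within a mouse (vertical axis, log2 units) at the 3 times, with 1 point per mouse and the mean with its SD (n = 8). The difference for Cxcl1 had its peak at 45 min (mean 3.93), whereas that for Cxcl5 was highest at 24 h (mean 1.79).

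On the log2(CPM + 0.5) scale Cxcl1 rose more than its receptor by 45 min, by a margin that varied with the added CPM. The edgeR log2 changes were 3.75 ± 0.33 and 2.29 ± 0.63. Without the 4 libraries that stood apart they were 3.42 ± 0.33 and 2.76 ± 0.67. The added CPM holds down the change of Cxcr2, which had few counts at 0 min, and the edgeR changes were not tested against each other. In the order of the times, the Cxcl1 minus Cxcr2 difference averaged 1.61 ± 0.78, 3.93 ± 0.87 and 0.81 ± 0.52 (SD, n = 8). It grew by 2.32 from 0 to 45 min (exact permutation test, adjusted p = 0.00105). The growth was 1.66 without the 4 libraries that stood apart (exact permutation test, adjusted p = 0.0112). With 0.1 CPM added in place of 0.5, the growth was 1.69 (exact permutation test, adjusted p = 0.0386). From 45 min to 24 h the difference fell by 3.12 (exact permutation test, adjusted p = 0.0004). At 24 h it lay 0.81 below the 0 min value (exact permutation test, adjusted p = 0.0358). That result was lost with 1 CPM in place of 0.5 (-0.40, adjusted p = 0.152). It was also lost without any of 8 single mice (the 0 min replicates 1, 6, 7 and 8 and the 24 h replicates 2, 3, 5 and 8, -0.80 to -0.64). With 0.1 CPM the value was -1.90 (exact permutation test, adjusted p = 0.00963). The edgeR log2 changes from 0 min to 24 h were 2.04 ± 0.32 for Cxcl1 and 4.08 ± 0.59 for Cxcr2.

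Cxcl5 had its highest level later than Cxcl1, at 24 h, and it gained on the receptor between 45 min and 24 h. Its difference from Cxcr2 averaged -0.16 ± 0.52, -0.0044 ± 0.98 and 1.79 ± 0.60 over the same times (SD, n = 8). From 0 to 45 min the change was 0.15 (exact permutation test, adjusted p = 0.714), and its sign turned without the 45 min replicate 6 (-0.11) and without the 4 libraries that stood apart (-0.29). At 24 h it was 1.95 above 0 min (exact permutation test, adjusted p = 0.0004) and 1.79 above 45 min (exact permutation test, adjusted p = 0.00249).

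For Cxcl3 the early comparison with the receptor carries little information, because Cxcl3 had 1 count in all at 0 min and 7 at 45 min and the added 0.5 CPM sets its value at both times. The Cxcl3 minus Cxcr2 difference fell by 0.88 from 0 to 45 min (exact permutation test, adjusted p = 0.00939). The fit without a filter gave log2 changes of 2.06 ± 1.17 for Cxcl3 and 2.28 ± 0.56 for Cxcr2 over that interval (edgeR, adjusted p = 0.683 and 0.079), so no lag of Cxcl3 was shown. From 45 min to 24 h the difference grew by 1.45 (exact permutation test, adjusted p = 0.00939). Its net change from 0 min to 24 h was 0.57 (exact permutation test, adjusted p = 0.211), on a scale that holds the Cxcl3 change down.

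The ligands also differed from one another. Cxcl1 gained 2.17 on Cxcl5 and 3.20 on Cxcl3 by 45 min (exact permutation test, adjusted p = 0.0004 in both), with no overlap between the mice of the 2 times. With 0.1 CPM added in place of 0.5, the gain on Cxcl5 was 1.38 (exact permutation test, adjusted p = 0.0275). The edgeR log2 changes by 45 min were 3.75 ± 0.33 for Cxcl1 and 2.82 ± 0.64 for Cxcl5. Without the 4 libraries that stood apart they were 3.42 and 2.67. The added CPM holds down the early change of Cxcl5, and these edgeR changes were not tested against each other. The added CPM sets the Cxcl3 value at both times, so the gain on Cxcl3 mostly restates the rise of Cxcl1. Without a filter, edgeR gave log2 changes of 3.75 ± 0.31 for Cxcl1 and 2.06 ± 1.17 for Cxcl3 over that interval. By 24 h the Cxcl1 minus Cxcl5 difference had dropped by 4.92 and the Cxcl1 minus Cxcl3 difference dropped by 4.57 (exact permutation test, adjusted p = 0.0004 in both). Cxcl3 and Cxcl5 were not told apart between 45 min and 24 h, with a change of -0.34 (exact permutation test, adjusted p = 0.471) that became 0.81 with 0.1 CPM added in place of 0.5. Between 0 min and 24 h the Cxcl3 minus Cxcl5 difference changed by -1.38 (exact permutation test, adjusted p = 0.00466), and by -0.90 with 0.1 CPM (adjusted p = 0.0977). This sign depends on the added CPM, since the fit without a filter gave the larger log2 change to Cxcl3 (7.86, against 6.84 for Cxcl5), and which of them changed more was not settled.

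**Figure D3:**
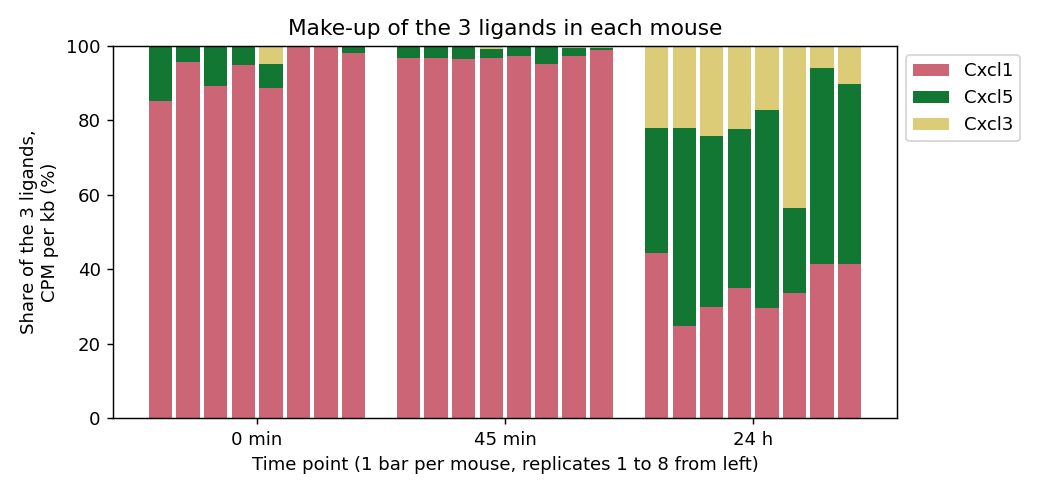
Share of Cxcl1, Cxcl5 and Cxcl3 in the sum of the 3 ligands, from levels in CPM per kb of coding-transcript exons (vertical axis, %), with 1 bar per mouse. Cxcl1 made up 85.3 to 100% at 0 min and 95.0 to 99.0% at 45 min, and 24.8 to 44.4% at 24 h.

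Per length, in CPM per kb of the exons of protein-coding transcripts, Cxcl1 was the most abundant of the 3 ligands in 8 of 8 mice at 0 min and in 8 of 8 at 45 min. Its level was 24.3 ± 10.8 CPM per kb at 45 min, against 0.648 ± 0.324 for Cxcl5 and 0.0838 ± 0.0987 for Cxcl3 (SD, n = 8). At 24 h the levels were 10.5 ± 7.21 CPM per kb for Cxcl5, 7.41 ± 3.41 for Cxcl1, 5.01 ± 3.83 for Cxcl3 and 1.31 ± 0.851 for Cxcr2. The ligands thus overlapped in level at 24 h, where Cxcl5 was the largest in 6 of 8 mice and Cxcl1 and Cxcl3 in 1 each. The mean share of Cxcl5 was 44.1% there, that of Cxcl1 35.0% and that of Cxcl3 20.9%. With the exons of all annotated transcripts, retained introns included, the shares at 24 h were 60.2%, 29.4% and 10.5%, and Cxcl5 was the largest in 8 of 8 mice.

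Among the mice of 1 time point, ligand and receptor levels were set against each other on log2(CPM + 0.5), in 18 relations over 8 mice each. At 24 h the mice rich in Cxcl1 were also rich in Cxcl5 (Pearson r = 0.898, exact permutation p = 0.00253, adjusted p = 0.0455), although Spearman's rho of 0.833 did not pass (exact permutation p = 0.0154, adjusted p = 0.138). Without the 2 mice farthest from the median of Cxcl1 the r was 0.712, and with 1 CPM added the adjusted p was 0.0504 (exact permutation test). The receptor at 24 h had r = 0.853 with Cxcl5 (exact permutation p = 0.0117, adjusted p = 0.0714) and r = 0.780 with Cxcl1 (exact permutation p = 0.0206, adjusted p = 0.0927), neither of which passed. The matching rho values were 0.833 (adjusted p = 0.138, exact permutation test) and 0.714 (adjusted p = 0.279, exact permutation test), and without the 2 farthest mice the r values were 0.824 and 0.848. At 45 min Cxcl1 and Cxcr2 had r = 0.103 (exact permutation p = 0.803, adjusted p = 0.904) and rho = -0.048 (exact permutation p = 0.935).

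The receptor sits mainly on neutrophils, so its levels were set beside 7 neutrophil markers (Cd177, Mmp8, Mmp9, Asprv1, Mcemp1, Ifitm6 and Hdc). Symbols were known only for transcripts that the study itself found to change over time in these samples, so the counts of this and every other list are not independent evidence. In bulk tissue, fewer cells of a type and less RNA per cell cannot be told apart. The summed markers were 3.38 to 11.7 CPM at 0 min (median 5.89), 6.33 to 29.2 at 45 min (median 11.7) and 10.6 to 59.4 at 24 h (median 31.2), and none of the 7 was at 0 in all mice of a time point.

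Of the 5 markers that passed the filter, 5 rose by 24 h against 0 min and 1 by 45 min. The shares of all transcripts called higher were 4.44% and 0.481%. Mmp9, a gelatinase stored in neutrophil granules, was 2.83 higher on the log2 scale at 24 h (edgeR, adjusted p = 0.000123) and Mmp8, the neutrophil collagenase, 4.15 (adjusted p = 0.000988). Cd177, a neutrophil surface protein, rose by 2.59 (adjusted p = 0.0243) and Ifitm6 by 2.15 (adjusted p = 0.00287). Hdc, which makes histamine and is also expressed by mast cells, was the marker that rose by 45 min (1.06, edgeR adjusted p = 0.00662) and stood at 1.33 at 24 h (adjusted p = 8.63e-05). Asprv1 and Mcemp1 were not tested, and their summed counts at 24 h were 4.97 times (95% exact interval 3.00 to 8.69) and 8.61 times (5.06 to 15.7) those at 0 min after scaling.

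Cxcr2 amounted to 2.90% of the summed markers in the median mouse at 0 min, 8.14% at 45 min and 12.6% at 24 h, with ranges of 0 to 18.9%, 0.952 to 26.7% and 4.55 to 19.1% that overlapped. Mmp9 and Hdc made up 79.7%, 77.5% and 72.4% of the mean marker sum at these times, and Hdc is not particular to neutrophils, so this share is not a measure of receptor per neutrophil. Among mice, the markers were related to each of the members in 12 further relations, added after the data had been seen. Cxcl1 followed the markers at 45 min (r = 0.913, exact permutation p = 0.00131, adjusted p = 0.00789, and rho = 0.905, adjusted p = 0.0435). Without the 2 farthest mice that r was 0.846. The mice highest in both were the 45 min replicates 7 and 8, with marker sums of 29.2 and 15.2 CPM, which belong to the 4 libraries that stood apart, and the part of these libraries in the relation was not tested. At 24 h Cxcl1 (r = 0.923, exact permutation adjusted p = 0.0112), Cxcl5 (r = 0.931, adjusted p = 0.00789) and Cxcl3 (r = 0.817, adjusted p = 0.0422) followed them by Pearson's r, of which Cxcl5 also passed by rank (rho = 0.881, adjusted p = 0.0435). The rho of Cxcl1 was 0.738 and that of Cxcl3 was 0.714 (exact permutation test, adjusted p = 0.173 in both). Without the 2 farthest mice these r values were 0.649 for Cxcl1, 0.779 for Cxcl5 and 0.567 for Cxcl3.

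Cxcr2 itself had r = 0.746 with the markers at 24 h (exact permutation p = 0.0357, adjusted p = 0.0858, rho = 0.571 with adjusted p = 0.302) and 0.143 at 45 min (exact permutation p = 0.719, adjusted p = 0.785). The part of neutrophil number in the levels of the members was not tested.

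**Figure D4:**
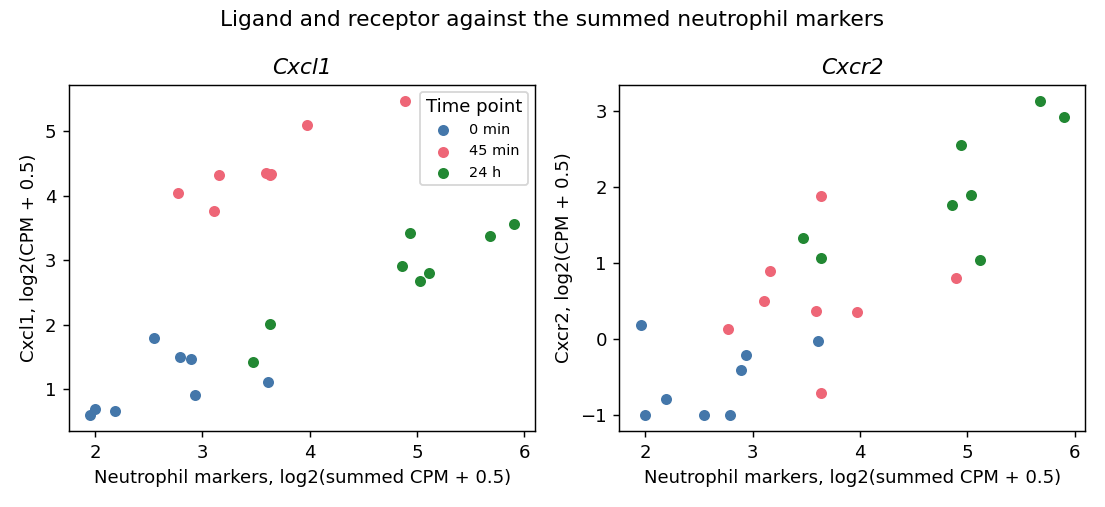
Cxcl1 (left) and Cxcr2 (right), as log2(CPM + 0.5), against the summed level of 7 neutrophil markers on the same log2 scale, with 1 point per mouse colored by time. At 45 min Cxcl1 climbs with the markers (r = 0.913) and lies above the 24 h mice at like marker levels, while Cxcr2 shows no such relation at that time (r = 0.143).

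Other genes of the pathway were taken from lists of known function. Of the further Cxcr2 ligands, Ppbp, a chemokine precursor stored in platelets, had 1.24 ± 1.66, 0.905 ± 0.585 and 8.29 ± 4.93 CPM at the 3 times (SD, n = 8) and rose by 2.73 on the log2 scale at 24 h (edgeR, adjusted p = 0.00115). Its log2 difference at 45 min was -0.44 (edgeR, adjusted p = 0.952). The other platelet marker, Pf4, had a log2 difference of 1.23 at 24 h that did not pass (edgeR, adjusted p = 0.144). Cxcl2 failed the filter, with 3 counts over the mice at 0 min, 33 at 45 min and 59 at 24 h. These were 11.1 times (95% exact interval 3.49 to 56.7) and 16.3 times (5.30 to 81.2) the 0 min counts after scaling, with counting error only.

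Of 3 tested CXC chemokines that do not use Cxcr2, none was called at 45 min and 1 was called at 24 h, Cxcl9, a ligand of Cxcr3 induced by interferon, which fell by 1.55 (edgeR, adjusted p = 4.42e-05), beside 3.24% of all transcripts called lower. Cxcl12, the ligand of Cxcr4, differed from 0 min by 0.47 at 24 h (edgeR, adjusted p = 0.0598) and rose by 0.67 from 45 min to 24 h (adjusted p = 0.00588). Cxcl13, a B cell attractant, failed the filter, and its counts were 3, 2 and 85 at the 3 times. Without the filter its log2 change at 24 h was 4.26 against 0 min (edgeR, adjusted p = 0.000462) and 4.69 against 45 min (adjusted p = 0.00032).

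CC chemokines attract monocytes and other leukocytes. They were called higher in 2 of 7 at 45 min (median log2 change 0.84), beside 0.481% of all transcripts. At 24 h they were called higher in 7 of 7 (median 2.85), beside 4.44%. The 2 early ones were Ccl2 (2.26, edgeR adjusted p = 0.0118) and Ccl7 (2.15, adjusted p = 0.0217), both attractants of Ccr2-bearing monocytes. They stood at 3.71 and 3.85 at 24 h (edgeR, adjusted p = 9.01e-06 and 5.94e-06). Ccl6 had not passed at 45 min (0.61, edgeR adjusted p = 0.948) and was 2.90 higher at 24 h (adjusted p = 5.2e-06).

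Receptors for other leukocyte attractants, like Cxcr2, were called higher at 24 h in 4 of 4 tested and at 45 min in 0 of 4. All transcripts were called higher in 4.44% and 0.481%. Ccr2, the receptor of Ccl2, was 2.91 higher at 24 h (edgeR, adjusted p = 3.3e-05), Ptafr, the receptor of platelet-activating factor, 1.38 (adjusted p = 0.000873) and Ccr1 2.78 (adjusted p = 0.000114). Their log2 differences at 45 min were -0.47, -0.40 and 0.84, against 2.29 for Cxcr2.

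Endothelial adhesion molecules, which let neutrophils roll and stick, were called higher in 3 of 3 at 45 min and 2 of 3 at 24 h. The shares over all transcripts were 0.481% and 4.44%. Sele (E-selectin) rose by 2.23 at 45 min (edgeR, adjusted p = 0.00101) and stood at 1.43 at 24 h (adjusted p = 0.0129). Selp (P-selectin) rose by 2.27 and then 4.05 (edgeR, adjusted p = 0.0138 and 1.81e-06). Icam1 rose by 1.25 at 45 min (edgeR, adjusted p = 0.00301), and its 0.70 at 24 h did not pass (adjusted p = 0.0525).

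Among 9 genes that relay the signals known to induce CXC ligands, 1 was called higher at 45 min and 4 at 24 h against 0 min. Over all transcripts these shares were 0.481% and 4.44%. The early one was Nfkbia, the inhibitor of NF-kB that NF-kB itself induces, which rose by 0.95 (edgeR, adjusted p = 0.00382) and fell by 1.07 from 45 min to 24 h (adjusted p = 0.000241). Il17ra, a subunit of the interleukin 17 receptor, was 1.79 higher at 24 h (edgeR, adjusted p = 3.45e-05), and Tnfrsf1b, a receptor of tumor necrosis factor, 0.73 (adjusted p = 0.00555).

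Monocyte and macrophage markers were called higher in 0 of 10 at 45 min and in 9 of 10 at 24 h, beside 0.481% and 4.44% of all transcripts. Their sum went from 64.8 to 99.0 CPM at 0 min to 123 to 321 CPM at 24 h. Chil3, a chitinase-like protein of myeloid cells, had a log2 change of 7.55 at 24 h (edgeR, adjusted p = 3.18e-08), Ms4a6d of 2.81 (adjusted p = 3.72e-06) and Msr1, a scavenger receptor, of 2.94 (adjusted p = 1.22e-05). The part of these cells in the levels of Cxcl3 and Cxcl5 was not tested. Over the same interval the cardiomyocyte markers Actc1 (-1.38, edgeR adjusted p = 1.07e-05) and Mybpc3 (-0.81, adjusted p = 0.00265) fell. These were 2 of 6 on the list, beside 3.24% of all transcripts called lower, while Lmod2 differed by -0.20 (edgeR, adjusted p = 0.524).

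**Figure D5:**
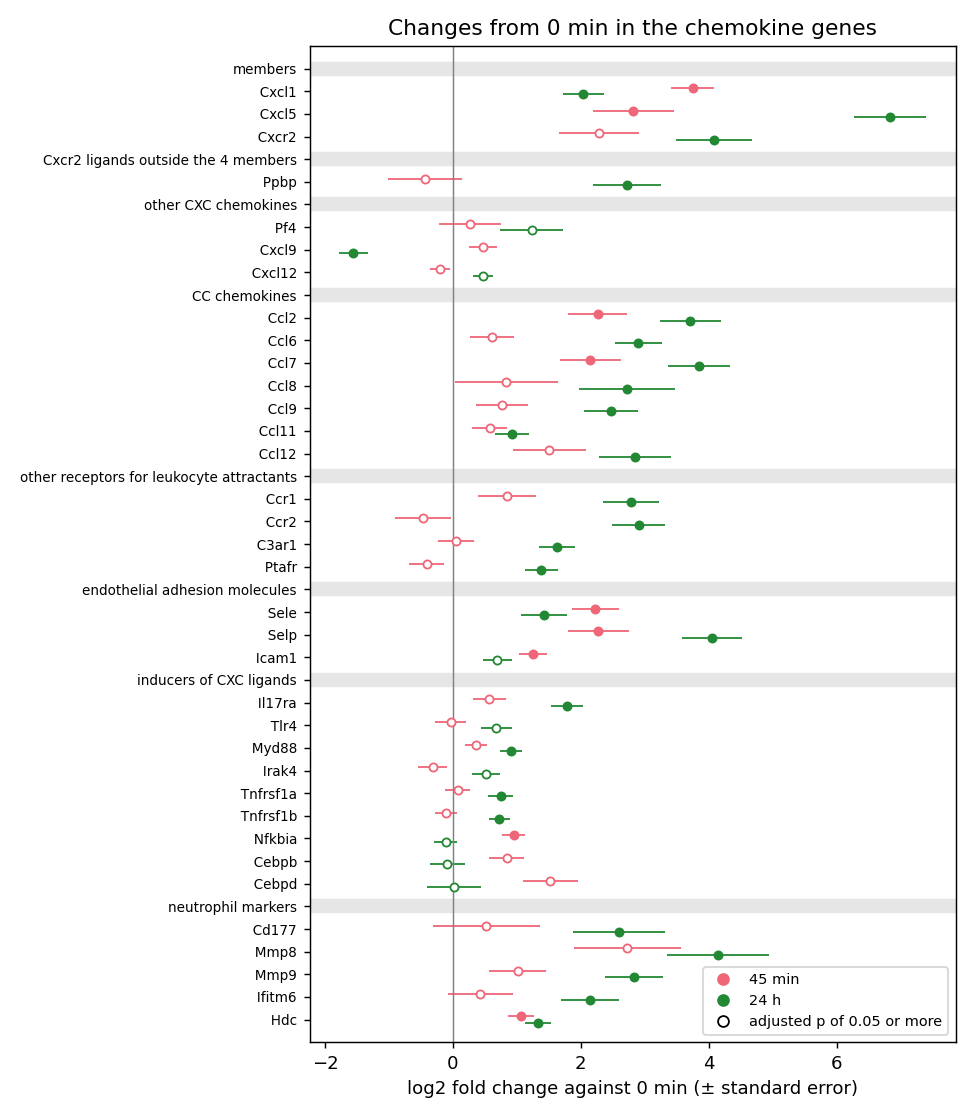
Log2 fold change against 0 min (horizontal axis, with standard error) at 45 min and 24 h, from edgeR, for the 3 members and the listed genes that passed the filter. Filled points passed an adjusted p of 0.05. Cxcl1, Cxcl5, the adhesion molecules, Ccl2, Ccl7, Hdc and Nfkbia were called at 45 min. Cxcr2 and the other receptors for leukocyte attractants were called only at 24 h in this fit. The 45 min change of Cxcr2 was 2.29, beside 2.23 for Sele and 2.27 for Selp, and DESeq2 called it.

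The transcripts whose levels over the 24 mice ran most like those of a member were found among the 8937 others tested, by Pearson r of log2(CPM + 0.5), as a description, since all mice share the time course. For Cxcl1 they were Socs3 (r = 0.886), a feedback inhibitor of cytokine signals, Rnd1 (0.872) and Sele (0.858). For Cxcl3 they were Arg1 (0.961), an arginase of activated macrophages, Chil3 (0.957) and Syt12 (0.940). For Cxcl5 they were Chil3 (0.949), Ms4a6d (0.940) and Lcn2 (0.935), a granule protein of neutrophils. For Cxcr2 they were Il17ra (0.919), Fgr (0.870), a kinase of myeloid cells, and B4galt5 (0.868). Chil3 appeared for both late ligands, and no transcript of the Cxcl1 group appeared for another member.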

How the data were processed

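The authors trimmed single-end 76-base reads of directional poly(A) libraries with cutadapt 1.9.1, mapped them to mm10 with TopHat2 2.1.0 (Bowtie2 2.2.9) and deposited raw htseq-count (HTSeq 0.6.0) counts per UCSC transcript. Counting mode, strand setting and transcript release are not given in the sources used here. One blank row was dropped. Surgeon and library pool are not given in the labels and were not used.

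Counts were fitted in R 4.3.3 with edgeR 4.0.16 (filterByExpr with a minimum of 10 counts and 15 in total, TMM, quasi-likelihood test, time as the only factor, all 24 samples), with Benjamini-Hochberg adjustment over all 8940 transcripts tested and a threshold of 0.05. Cxcl3, within-mouse differences and relations were tested by exact permutation (12870 splits of 8 against 8, 40320 pairings of 8). Standard errors are the log2 change over the square root of F. The fits and permutation tests were also tested on simulated data. Intervals cover counting error only.

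Symbols were available for 1209 transcripts, of which 1097 were tested. Named genes are the members, every gene of the Cxcr2 ligand, CXC and neutrophil lists, the 3 genes of each other list with the smallest adjusted p over time, and the 3 transcripts most like each member. The members and lists were chosen with earlier results of these data known.

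Alternatives were RLE and upper quartile factors, DESeq2 1.42.0, limma-voom (limma 3.58.1), no or a stricter filter, the replicate number as a block, fits on 2 time points, a transcript or a sample left out, the number of detected transcripts as a covariate, other pseudocounts, and, added after seeing the data, 4 libraries with TMM factors under 0.8 left out. No pair among the 84 pairs of same-time mice had counts alike within sampling noise.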

Additional observations from a re-analysis of the deposited data

Results flagged for a closer look

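In 12 groups of 8 mice (4 members, 3 times), Dixon's test marked a single mouse in 2, and chance alone would mark about 1 in 20 groups. Cxcr2 in the 45 min replicate 5 was 3.18 CPM, against 1.36 CPM in the next mouse. The other, Cxcl3 in the 0 min replicate 5, was 0.0976 CPM, which is 1 count, and as the other mice of that group had none, any single count would have been marked, so it carries no information.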

How the results depend on the processing

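Of the recomputed values, 936 kept their direction and their side of the threshold (a count: within 1.5 times), and the others are given here. The rises of Cxcl1 by 45 min and of Cxcl1, Cxcl5 and Cxcr2 by 24 h against 0 min, and that of Cxcl3 by 24 h, passed under every alternative that could be fitted. The early rise of Cxcl5 missed the threshold by limma-voom (2.75) and without the 4 libraries with low normalization factors (2.67), and its range with single mice left out was 2.65 to 3.15. Cxcr2 at 24 h against 45 min missed it without those 4 libraries (1.33) and with the number of detected transcripts as a covariate (1.50), with a range of 1.52 to 2.21 over single mice. Cxcr2 at 45 min against 0 min passed with DESeq2 (2.35). Cxcl1 minus Cxcr2 at 24 h against 0 min missed it with 1 CPM added (-0.40), and single mice moved it from -0.98 to -0.64. Cxcl5 minus Cxcr2 at 45 min against 0 min turned negative without the 4 libraries (-0.29), and over single mice it ran from -0.11 to 0.35. With 0.1 CPM added, Cxcl3 minus Cxcl5 missed the threshold at 24 h against 0 min (-0.90), it turned to 0.81 at 24 h against 45 min, and the r of Cxcl1 with Cxcl5 at 45 min turned to -0.011. With 1 CPM added, the r of Cxcl1 with Cxcl5 at 24 h (0.898) and of the neutrophil markers with Cxcl3 (0.811) missed the threshold.

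Calls over all transcripts for 45 min against 0 min numbered 109 with DESeq2, 102 with the covariate and 28 without the 4 libraries, beside 65. For 24 h against 0 min they numbered 1044 with the covariate and 1069 without the 4 libraries, beside 687, and for 24 h against 45 min 394 without the 4 libraries, beside 813. Single mice moved the last from 524 (without the 24 h replicate 2) to 1668 (without the 24 h replicate 4), and the calls over time, 797, from 586 (without the 24 h replicate 2) to 1290 (without the 24 h replicate 4). The cause was not tested.

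The mice of different times were separate animals, so the replicate number was not used in the main fit. Deviations of same-numbered mice had an r over 0.1 in 13 of 24 pairs (from -0.541 to 0.583, median 0.120), and 6 of 24 samples matched their own number best. No chance value was computed for these counts, so whether the numbers carry a shared source of variation was not tested. With the number as a block, calls numbered 49, 617, 656 and 676 (45 min and 24 h against 0 min, 24 h against 45 min, over time), and no call on a member changed. Cxcr2 failed the stricter filter, Cxcl5 and Cxcr2 failed the filter in the fit on 0 and 45 min alone, and these gave no value. Depth limits the early levels of Cxcl3 (1 and 7 counts over the mice at 0 and 45 min), Cxcl5 (12 and 88) and Cxcr2 (20 and 104).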
